A study of Rattus norvegicus with 52 samples.

Results

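The comparison set the lungs of rats given the highest instilled dose of ADEB18 (0.5) against those given the lowest (0.125). The libraries were chosen by their titles alone, which gave 4 libraries at 0.5 and 4 at 0.125, 8 of the 52 in the series. Every gene in the count tables was eligible. No Control library entered the contrast, so it asks what changed along the dose range and not what changed from an undosed lung. All animals were Sprague Dawley rats labelled as wild type (WT), and each received its agent once, by instillation into the trachea. The agents belong to the quaternary ammonium compounds, cationic surfactants used as disinfectants. ADEB18 and ABD, which is drawn on below for a parallel contrast, were both given at 0.125, 0.25 and 0.5, and the Control group received what the labels call DW. The sources used here do not give the unit of dose, the age and sex of the rats or the time between instillation and lung collection. Lung RNA was sequenced from the 3' ends of polyadenylated transcripts, with 4 libraries in each of 13 groups. The labels name each library by group and number and do not describe the rat behind it, so the p-values measure the spread between libraries.

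A library contained 9113403 to 12712397 counts at 0.125, 9598894 to 11937634 at 0.25 and 9847152 to 13852249 at 0.5. The tissue label was borne out by lung markers: the surfactant protein transcript Sftpc was counted at 6440 to 11220 CPM (counts scaled to library size) over the 8 libraries, Ager of the alveolar type 1 cell at 1171 to 1630 CPM and the endothelial gene Pecam1 at 189 to 255 CPM. Heart muscle transcripts were also present. The 11 cardiac muscle genes summed to 6315, 682, 8346 and 2714 CPM in 0.125 replicates 1 to 4, and to 244, 2260, 1283 and 1871 CPM at 0.5, so that 0.125 replicates 1 and 3 stood apart. The same 2 libraries were the highest at 0.125 in markers of the airway: club cell markers summed to 11350, 5013, 13730 and 7246 CPM in replicates 1 to 4 and to 6367 to 7202 CPM at 0.5, and ciliated cell markers to 1180, 530, 1175 and 616 CPM and to 598 to 834 CPM. The part of these transcripts in the results was not tested, except by the fits without these libraries and with the heart muscle level as a covariate. In another respect 0.125 replicate 2 stood apart, with transcripts of inflammation far above its group, as described below. Because the tissue was taken whole, fewer cells of a type and less RNA per cell cannot be told apart in any result.

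Cells make cholesterol from acetyl-CoA through the mevalonate pathway and a series of sterol steps in the endoplasmic reticulum (ER). When sterol in the ER membrane falls, the transcription factor SREBP2 is released from the ER protein INSIG1, is cut in the Golgi and switches on nearly every gene of the route. In the lung, type 2 alveolar cells also pack lipid and protein into surfactant. The ER further holds chaperones whose genes answer to unfolded protein, and the airways release chemokines that call monocytes out of the blood.

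Between 0.125 and 0.5, edgeR's quasi-likelihood test called 435 of 17796 genes tested (2.44%) at an adjusted p under 0.05, of which 303 were higher at 0.5 (1.70%) and 132 lower (0.742%). Changes were mostly modest, with a median size of 0.65 on the log2 scale among called genes, and 76 genes (0.427%) also changed at least 2-fold, 54 upward (0.303%) and 22 downward (0.124%). The median log2 fold change over all genes tested was -0.01. For 393 called genes (2.21%) no library of one dose overlapped the range of the other, whereas 1995 genes (11.2%) did not overlap whether called or not. Genes named below for the size of their change were required not to overlap, so for them this is no further result. Ccl12, Ccl2, Arg1, Areg, Ch25h, Abcd2, Jph2 and Hspb8 are among them. At an unadjusted p under 0.05 the count was 2926 (16.4%). With DESeq2 size factors in place of TMM the split was 229 higher and 177 lower, and without 0.125 replicate 4 it was 191 and 145. The number of calls rested on single libraries: it was 236 without 0.125 replicate 1, 176 without 0.125 replicate 3, and 264, 175, 128 and 219 without 0.5 replicates 1 to 4, and 101 with 0.125 replicates 1 and 3 both left out.

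The clearest change was in the genes of cholesterol synthesis. This list and the others below were chosen with earlier results of these data known, so their counts are not independent tests. Of 24 tested members of a list of cholesterol synthesis and SREBP2 target genes, 14 rose and none fell, against 1.70% of all genes higher. The list median was 0.88 on the log2 scale, beside -0.01 for all genes tested, and the called members rose by up to 1.43. Lack of overlap was common among called genes, at 393 of all 435. In 13 of the 14 every library at 0.5 lay above every library at 0.125, with Acat2 as the exception. Of the 12 of these named below, 9 kept their call in all 8 fits that left out 1 library, and the count of risen members of the list in those fits was 10 to 14, lowest without 0.5 replicate 3. With 0.125 replicates 1 and 3 both left out, 9 of the 24 rose. With only the libraries of the contrast in the fit, 10 of the 24 rose.

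The promoters of 3 of these genes are shown because the sequences held the CCAAT box, at which the factor NF-Y is known to bind beside SREBP2 in sterol-regulated promoters. Each run is the 250 bases before the gene's start in RefSeq, build GRCr8, read 5' to 3' on the gene's strand, with CCAAT or its reverse complement ATTGG in capitals. Fdps lies at chr2:176804817-176805066 (minus strand), Insig1 at chr4:8057770-8058019 (minus strand) and Idi1 at chr17:66547525-66547774 (minus strand).
Fdps: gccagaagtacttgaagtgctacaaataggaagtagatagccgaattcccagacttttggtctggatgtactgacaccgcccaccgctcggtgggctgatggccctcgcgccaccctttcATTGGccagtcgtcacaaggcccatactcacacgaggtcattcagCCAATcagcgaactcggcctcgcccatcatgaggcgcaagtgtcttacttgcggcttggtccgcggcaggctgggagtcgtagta
Insig1: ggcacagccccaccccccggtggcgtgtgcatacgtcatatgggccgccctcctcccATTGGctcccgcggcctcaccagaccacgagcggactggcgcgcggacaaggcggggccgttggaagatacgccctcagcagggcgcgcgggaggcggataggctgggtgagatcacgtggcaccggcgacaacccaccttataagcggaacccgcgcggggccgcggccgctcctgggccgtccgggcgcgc
Idi1: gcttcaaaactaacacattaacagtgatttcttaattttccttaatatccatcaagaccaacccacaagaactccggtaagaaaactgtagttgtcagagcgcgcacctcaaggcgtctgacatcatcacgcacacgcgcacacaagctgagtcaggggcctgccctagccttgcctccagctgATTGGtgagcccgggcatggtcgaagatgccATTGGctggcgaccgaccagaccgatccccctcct
Of the 25 genes listed, 17 matched a promoter in that table. CCAAT, searched on both strands over the 250 bases before and 50 after the start, was found in 14 of the 17 (82.4%), and in 37.5% of all 33469 promoters. It was in 9 of the 11 called genes with a promoter, and also in Srebf2, Mvk, Mvd, Ebp and Nsdhl, which were not called. One form of the sterol element, TCACNCCAC, was found in 0 of the 17 and in 1.12% of all promoters, which says only that those letters do not occur in these windows. The match is a description of sequence and not a measurement of binding.

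At the head of the pathway, Hmgcs1, the HMG-CoA synthase, was measured at 70.7, 78.3, 75.7 and 54.8 CPM in 0.125 replicates 1 to 4 and at 121, 178, 189 and 123 CPM in 0.5 replicates 1 to 4. The doses did not overlap, and the log2 fold change was 1.13 ± 0.18 (SE; adjusted p = 0.000427). Acat2, a cytosolic thiolase that supplies acetoacetyl-CoA, rose by 1.07 ± 0.26 (adjusted p = 0.0204), with 0.125 replicate 2 at 72.3 CPM just above 0.5 replicate 1 at 68.3 CPM. Acat2 lost its call without 0.125 replicates 1, 3 or 4 or 0.5 replicates 2 or 3, with an adjusted p of up to 0.116.

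The isoprenoid steps followed. Idi1, the isopentenyl diphosphate isomerase, was at 39.4, 40.8, 28.7 and 21.8 CPM at 0.125 and 68.4, 102, 109 and 70.4 CPM at 0.5. Its doses were well separated, and it rose by 1.42 ± 0.27 (adjusted p = 0.00253). Fdps, the farnesyl diphosphate synthase, was at 70.7, 73.3, 65.1 and 66.4 CPM at 0.125 and 97.1, 164, 170.0 and 138 CPM at 0.5, with 0.5 replicate 1 the lowest of its group but above all of 0.125. The log2 fold change was 1.05 ± 0.18 (adjusted p = 0.000616). Fdft1, the squalene synthase, rose by 0.87 ± 0.20 (adjusted p = 0.00906) and Lss, the lanosterol synthase, by 1.33 ± 0.32 (adjusted p = 0.0140). Fdft1 lost the call without 0.125 replicate 4 or 0.5 replicate 3 (adjusted p up to 0.0693), and Lss without 0.125 replicate 1 or 0.5 replicates 2 or 3 (up to 0.0750).

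Among the sterol steps after lanosterol, Cyp51, the lanosterol demethylase, showed the smallest adjusted p of any gene in the list. It was at 52.2, 46.6, 47.2 and 46.95 CPM in 0.125 replicates 1 to 4 and at 118, 149, 147 and 108 CPM at 0.5, a rise of 1.43 ± 0.20 on the log2 scale (adjusted p = 3.17e-05). Every library at 0.5 lay far above the tightly grouped libraries at 0.125. Tm7sf2, a sterol reductase, rose by 1.26 ± 0.26 (adjusted p = 0.00389), Msmo1, the sterol methyl oxidase, by 1.02 ± 0.19 (adjusted p = 0.00129), and Hsd17b7, which reduces sterol ketones, by 1.28 ± 0.27 (adjusted p = 0.00517). Sc5d, the desaturase near the end of the route, rose by 0.75 ± 0.15 (adjusted p = 0.00389).

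Insig1, itself a SREBP2 target that holds the factor's escort in the ER, was at 96.7, 83.7, 96.0 and 81.3 CPM at 0.125 and 148, 219, 232 and 189 CPM at 0.5. The doses did not overlap and it rose by 1.14 ± 0.17 (adjusted p = 0.000197). Srebf2, the gene of SREBP2, was at 211 to 230 CPM at 0.125 and 203 to 234 CPM at 0.5 (log2 fold change -0.02 ± 0.11, adjusted p = 0.958). Members without a call included Sqle, the squalene epoxidase (0.55 ± 0.22, adjusted p = 0.176), Mvd (0.89 ± 0.31, adjusted p = 0.118), Mvk (0.32 ± 0.18, adjusted p = 0.396), Nsdhl (0.28 ± 0.21, adjusted p = 0.546) and Dhcr7 (0.49 ± 0.20, adjusted p = 0.197). In a list of 12 fatty acid synthesis genes, none was called. Fasn, the fatty acid synthase, gave 0.41 ± 0.16 (adjusted p = 0.169) and Scd, the stearoyl-CoA desaturase, 0.45 ± 0.32 (adjusted p = 0.521).

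Levels at the low dose were mostly below those of Control. For 13 of the 14 called genes the mean at 0.125 lay below the Control mean, for 4 of them with no overlap of libraries. For all 14 the mean at 0.5 lay above it. The calls picked genes lower at 0.125 than at 0.5, which favours such an order. In the ER chaperone and ribosome biogenesis lists below, the mean at 0.125 was below Control for 4 of 5 and 7 of 9 called genes. In the lists of protein entry into the ER and of splicing factors, it was below Control for 5 of 6 and 6 of 6. The mean at 0.5 was above Control for all of them. Cyp51 averaged 64.8 ± 3.84 CPM (SD, n = 4) in Control, 48.2 ± 2.69 at 0.125, 58.9 ± 10.8 at 0.25 and 130 ± 20.6 at 0.5. Hmgcs1 averaged 113 ± 13.8, 69.9 ± 10.5, 88.4 ± 16.4 and 153 ± 36 CPM in the same order. These are levels set side by side, and neither dose was tested against Control here.

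**Figure D1:**
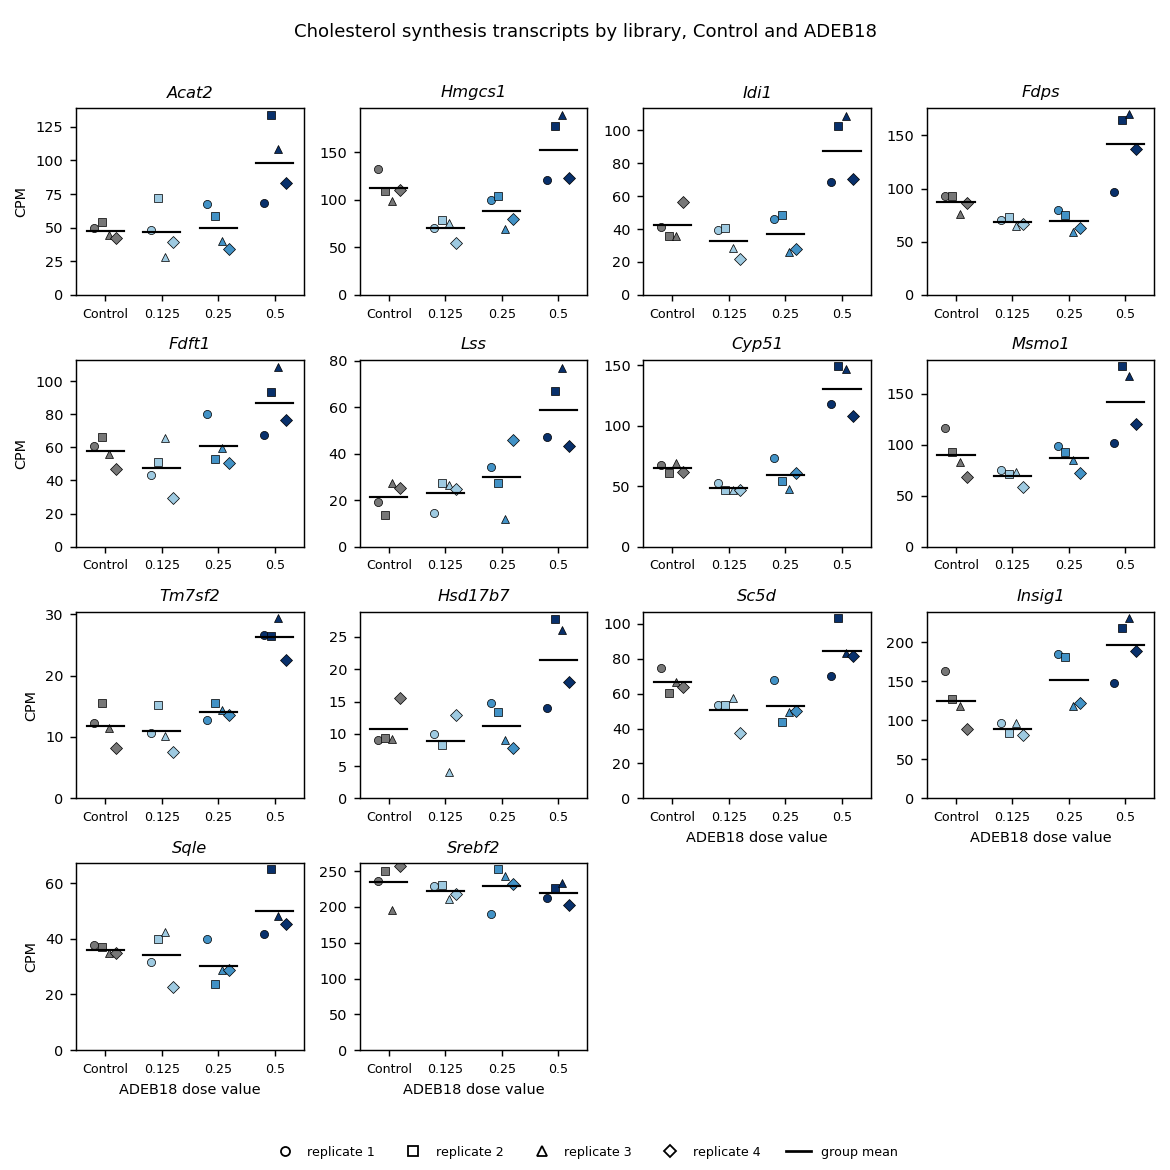
CPM (vertical axis, from 0) of 14 cholesterol synthesis transcripts in each library of Control and of ADEB18 at 0.125, 0.25 and 0.5 (horizontal axis), with symbols for replicate numbers and lines for group means. In Cyp51 the libraries at 0.5 lie at 108 to 149 CPM and those at 0.125 at 46.6 to 52.2 CPM, while Srebf2 stays at 203 to 234 CPM in both.

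The ER held a smaller change. Of 22 genes of the ER chaperones and the integrated stress response, 5 rose and none fell, against 1.70% of all genes higher, with a list median of 0.41. All 5 were chaperones or folding factors: Calr encodes calreticulin, Hsp90b1 the ER form of HSP90, Pdia6 a disulfide isomerase, Dnajc3 a co-chaperone and Manf a secreted factor of the ER. Calr was at 424, 447, 348 and 398 CPM at 0.125 and 553, 630, 662 and 594 CPM at 0.5 (log2 fold change 0.59 ± 0.15, adjusted p = 0.0210). No library of Calr overlapped between doses. Manf rose by 0.75 ± 0.19 (adjusted p = 0.0255), Hsp90b1 by 0.69 ± 0.19 (adjusted p = 0.0390), Pdia6 by 0.68 ± 0.19 (adjusted p = 0.0422) and Dnajc3 by 0.46 ± 0.13 (adjusted p = 0.0428). By contrast, Hspa5, the chaperone BiP, gave 0.31 ± 0.16 (adjusted p = 0.337), and the stress transcription factors Atf4 and Ddit3 gave -0.24 ± 0.12 (adjusted p = 0.290) and -0.32 ± 0.18 (adjusted p = 0.357). The ER calls were close to the threshold. Leaving out single libraries left 0 to 3 of the 22, with 0 without 0.125 replicate 3 or 0.5 replicates 2 or 3, 1 without 0.125 replicate 1, 2 without 0.125 replicate 4 or 0.5 replicates 1 or 4, and 3 without 0.125 replicate 2. With DESeq2 size factors 2 rose. None rose with 0.125 replicates 1 and 3 both left out, and the list median was then 0.35.

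The promoters of 3 of the called chaperone genes are shown because each held the ER stress element, the site through which ATF6 and NF-Y act on chaperone genes. The element searched was CCAAT, a spacer of 9 bases of any kind and CCACG, on both strands, and it or its reverse complement is in capitals. It begins with a CCAAT box, so every match is also a match of that motif. The run is again the 250 bases before the start on the gene's strand (RefSeq, GRCr8). Hsp90b1 lies at chr7:23012294-23012543 (minus strand), Calr at chr19:40213117-40213366 (plus strand) and Dnajc3 at chr15:102432417-102432666 (plus strand).
Hsp90b1: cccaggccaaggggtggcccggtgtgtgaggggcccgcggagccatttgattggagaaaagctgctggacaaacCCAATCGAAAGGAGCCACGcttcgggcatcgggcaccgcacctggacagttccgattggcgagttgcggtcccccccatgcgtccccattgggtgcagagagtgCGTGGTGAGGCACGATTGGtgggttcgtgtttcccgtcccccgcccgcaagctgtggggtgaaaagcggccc
Calr: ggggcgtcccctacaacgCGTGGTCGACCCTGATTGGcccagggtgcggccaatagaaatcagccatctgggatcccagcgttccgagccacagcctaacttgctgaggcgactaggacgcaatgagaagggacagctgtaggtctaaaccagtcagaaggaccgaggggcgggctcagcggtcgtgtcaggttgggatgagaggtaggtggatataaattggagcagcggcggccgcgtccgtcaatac
Dnajc3: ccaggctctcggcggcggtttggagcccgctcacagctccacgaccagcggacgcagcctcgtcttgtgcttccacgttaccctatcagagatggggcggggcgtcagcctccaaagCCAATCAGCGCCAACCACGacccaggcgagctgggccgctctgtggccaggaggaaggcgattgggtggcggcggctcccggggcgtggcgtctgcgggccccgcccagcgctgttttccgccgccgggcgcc
Of the 22 genes listed, 18 matched a promoter and 7 of these (38.9%) held the element, against 0.0657% of all promoters. The 7 included Hspa5, Creld2, Canx and Xbp1, none of which was called.

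Genes for the entry of new proteins into the ER and their glycosylation, in a list made after values were seen, rose in 6 of 29 tested (none fell), against 1.70% of all genes. Stt3a, the catalytic subunit of an oligosaccharyltransferase, was at 110.1, 93.0, 82.3 and 101 CPM at 0.125 and 142, 162, 149 and 153 CPM at 0.5, with no overlap, and rose by 0.64 ± 0.11 (adjusted p = 0.000578). Sec61b of the translocon rose by 0.70 ± 0.14 (adjusted p = 0.00407), Ssr1 of the translocon-associated complex by 0.58 ± 0.12 (adjusted p = 0.00407) and Rrbp1, the ribosome-binding protein of the rough ER, by 0.61 ± 0.12 (adjusted p = 0.00310). Edem2, which trims mannose from misfolded glycoproteins, rose by 1.37 ± 0.25 (adjusted p = 0.00125), from 8.45 to 13.04 CPM at 0.125 to 25.8 to 29.8 CPM at 0.5. These 5 genes kept their call in all 8 fits with 1 library left out, and 3 of the list, Stt3a, Sec61b and Edem2, rose with 0.125 replicates 1 and 3 both left out.

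Another pair of lists made after values were seen moved upward in part. Of 28 ribosome biogenesis genes 9 rose and none fell, against 1.70% of all genes higher, with a median of 0.51. Ncl, which encodes nucleolin, rose by 1.02 ± 0.22 (adjusted p = 0.00623), Pdcd11, a nucleolar processing factor, by 0.70 ± 0.12 (adjusted p = 0.000646) and Pa2g4, a growth-regulated nucleolar protein, by 0.91 ± 0.18 (adjusted p = 0.00377). These 3 and Ccdc86 were the members called in all 8 fits, while the count was 4 to 8 with single libraries left out (4 without 0.125 replicate 3 or 0.5 replicate 2, and 5 without 0.125 replicates 1 or 4 or 0.5 replicates 3 or 4) and 1 with 0.125 replicates 1 and 3 both left out. Of 27 splicing factor genes 6 rose and none fell, against the same 1.70% of all genes. Hnrnpm, a nuclear RNA-binding protein of the spliceosome, tied with Cyp51 for the smallest adjusted p of all genes. It was at 215, 143, 179 and 187 CPM at 0.125 and 288, 293, 304 and 330 CPM at 0.5, without overlap, and rose by 0.75 ± 0.10 (adjusted p = 3.17e-05). Of the 6, Hnrnpm was called in all 8 fits. The count of risen members was 2 without 0.5 replicates 2, 3 or 4, 3 without 0.125 replicates 1 or 4 or 0.5 replicate 1, and 4 without 0.125 replicates 2 or 3. It was 3 with 0.125 replicates 1 and 3 both left out. Arid1a, a subunit of the SWI/SNF chromatin remodeller, rose by 0.63 ± 0.10 (adjusted p = 0.000427).

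**Figure D2:**
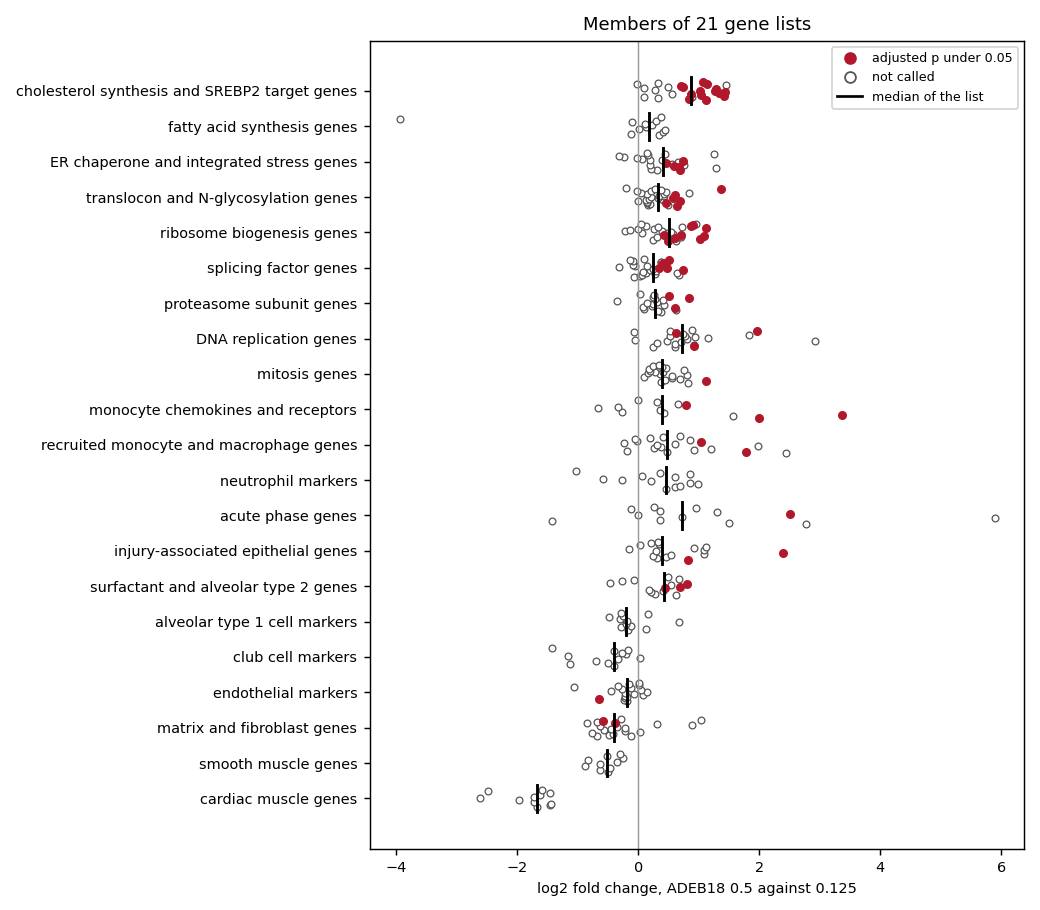
The log2 fold change of 0.5 against 0.125 (horizontal axis) for each tested member of 21 gene lists (vertical axis), filled where the adjusted p was under 0.05, with a bar at the list median. Cholesterol genes sit around a median of 0.88 with 14 of 24 filled, and all 11 cardiac muscle genes lie below 0 with none filled.

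Monocyte chemokines formed the next group. Of 12 tested genes of monocyte chemokines and their receptors, 3 rose and none fell, against 1.70% of all genes higher, with a list median of 0.39. Ccl12 had the largest rise of the genes named by size in the contrast. It was at 1.34, 10.9, 3.07 and 1.99 CPM in 0.125 replicates 1 to 4 and 30.7, 49.7, 57.6 and 42.8 CPM at 0.5, and rose by 3.36 ± 0.66 on the log2 scale (adjusted p = 0.00318), called in every fit with 1 library left out. With 0.125 replicates 1 and 3 both left out the adjusted p was 0.104. Ccl2, the main ligand of CCR2 on monocytes, was at 8.85, 33.5, 7.57 and 8.67 CPM at 0.125 and 38.2, 60.7, 68.8 and 66.9 CPM at 0.5. No library overlapped, but 0.125 replicate 2 approached the lowest library at 0.5. The rise was 1.99 ± 0.50 (adjusted p = 0.0210), called without 0.125 replicate 2 or 0.5 replicate 1 and not in the other 6 fits (adjusted p up to 0.0977). The list had 2 risen members without 0.125 replicates 2 or 4 or 0.5 replicate 1, 1 in each of the other 5 fits and 0 with 0.125 replicates 1 and 3 both left out, where the list median was -0.10. Csf1, the growth factor of macrophages, rose by 0.78 ± 0.22 (adjusted p = 0.0453) and kept that call in 1 of the 8 fits, without 0.125 replicate 4. Ccl7 gave 1.57 ± 0.54 (adjusted p = 0.114).

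The library 0.125 replicate 2 set the size of several inflammatory changes. Saa3, a serum amyloid A of the acute phase, was at 7.67, 70.6, 4.06 and 5.38 CPM at 0.125, so that this single library exceeded 3 of the 4 at 0.5 (49.5, 67.6, 71.3 and 61.7 CPM), and the log2 fold change of 1.501 ± 0.71 was not called (adjusted p = 0.267). Spp1, which encodes osteopontin, was at 12.3, 136, 8.01 and 8.67 CPM at 0.125 and 179, 274, 358 and 94.6 CPM at 0.5 (2.45 ± 0.97, adjusted p = 0.175). Both genes thus overlapped through that library alone. The library was singled out for its high values in Saa3, Spp1, Ccl2 and Il24. Larger rises of these genes without it were therefore favoured in advance and are no further result. Without 0.125 replicate 2, Saa3 gave 3.44 ± 0.76 (adjusted p = 0.00987), Spp1 4.54 ± 1.14 (adjusted p = 0.0218), Ccl2 2.80 ± 0.54 (adjusted p = 0.00255) and Lcn2, the siderophore-binding lipocalin, 3.47 ± 0.97 (adjusted p = 0.0416). With the library in, Lcn2 gave 2.78 ± 0.85 (adjusted p = 0.0655), and Il24, a cytokine of the interleukin 10 family, 2.42 ± 0.99 (adjusted p = 0.195). Without that library Il24 gave 4.1 ± 1.195 (adjusted p = 0.0546) and Ccl7 1.74 ± 0.61 (adjusted p = 0.115), and neither was called.

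With all libraries 2 of 19 recruited monocyte and macrophage genes rose (none fell), against 1.70% of all genes. The 2 were Arg1, the arginase of alternatively activated macrophages, and Fabp5, a fatty acid binding protein. Arg1 was at 7.98, 15.5, 4.94 and 8.97 CPM at 0.125 and 20.3, 35.2, 32.4 and 41.6 CPM at 0.5, with no overlap (1.78 ± 0.44, adjusted p = 0.0195). Fabp5 rose by 1.05 ± 0.29 (adjusted p = 0.0376), with 0.125 replicate 2 at 504 CPM above 0.5 replicate 1 at 493 CPM. Arg1 was called in the fits without 0.125 replicates 2 or 4 or 0.5 replicate 1, and Fabp5 in those without 0.125 replicate 2 or 0.5 replicate 1. The count of the list was 0 without 0.125 replicates 1 or 3 or 0.5 replicates 2, 3 or 4, and 1 without 0.125 replicate 4. It was also 0 with 0.125 replicates 1 and 3 both left out. The count was 2 without 0.5 replicate 1. It was 7 without 0.125 replicate 2, the library singled out for high inflammatory transcripts, where 303 of 18162 genes were higher. None of 13 neutrophil markers was called. S100a8 and S100a9, the calprotectin subunits abundant in neutrophils, gave 0.46 ± 0.41 (adjusted p = 0.634) and 0.62 ± 0.41 (adjusted p = 0.484), and the neutrophil markers summed to 201 to 415 CPM at 0.125 and 302 to 607 CPM at 0.5. The recruited macrophage genes summed to 2105 to 4841 CPM at 0.125 and to 3961 to 4272 CPM at 0.5, and the part of these cells in the other changes was not tested.

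Ch25h makes 25-hydroxycholesterol, an oxysterol that macrophages release and that holds SREBP2 back. It was named by size, which required doses without overlap. It was at 9.48, 4.504, 8.12 and 8.47 CPM at 0.125 and 30.3, 32.9, 31.9 and 29.6 CPM at 0.5, a rise of 2.03 ± 0.40 (adjusted p = 0.00377) called in every fit with 1 library left out. In Control it averaged 6.05 ± 2.46 CPM. Further called immune genes included Itih4 of the acute phase (2.51 ± 0.69, adjusted p = 0.0377), the complement receptors C5ar1 (1.09 ± 0.26, adjusted p = 0.0131) and C5ar2 (1.6 ± 0.44, adjusted p = 0.0362), the complement inhibitor C4bpa (1.57 ± 0.43, adjusted p = 0.0360) and the chemokine Cxcl17 (0.77 ± 0.20, adjusted p = 0.0283). Beside 1.70% of all genes higher, Itih4 was the called member of 13 acute phase genes tested, C5ar1 of 13 complement genes and Cxcl17 of 15 neutrophil chemokine and early cytokine genes. Each lost its call in some fits: C5ar1 without 0.125 replicates 3 or 4, Cxcl17 in all but those without 0.125 replicate 2 or 0.5 replicates 1 or 4, Itih4 and C5ar2 in all but those without 0.125 replicate 2 or 0.5 replicate 4, and C4bpa in all but those without 0.125 replicate 2 or 0.5 replicate 1. In those fits the adjusted p reached 0.0709 for C5ar1, 0.124 for Cxcl17, 0.142 for Itih4, 0.137 for C5ar2 and 0.108 for C4bpa. The count of risen acute phase genes was 0 to 3 with single libraries left out, and the 3 were found without 0.125 replicate 2. The acute phase list and that of neutrophil chemokines and early cytokines had 0 called members with 0.125 replicates 1 and 3 both left out.

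**Figure D3:**
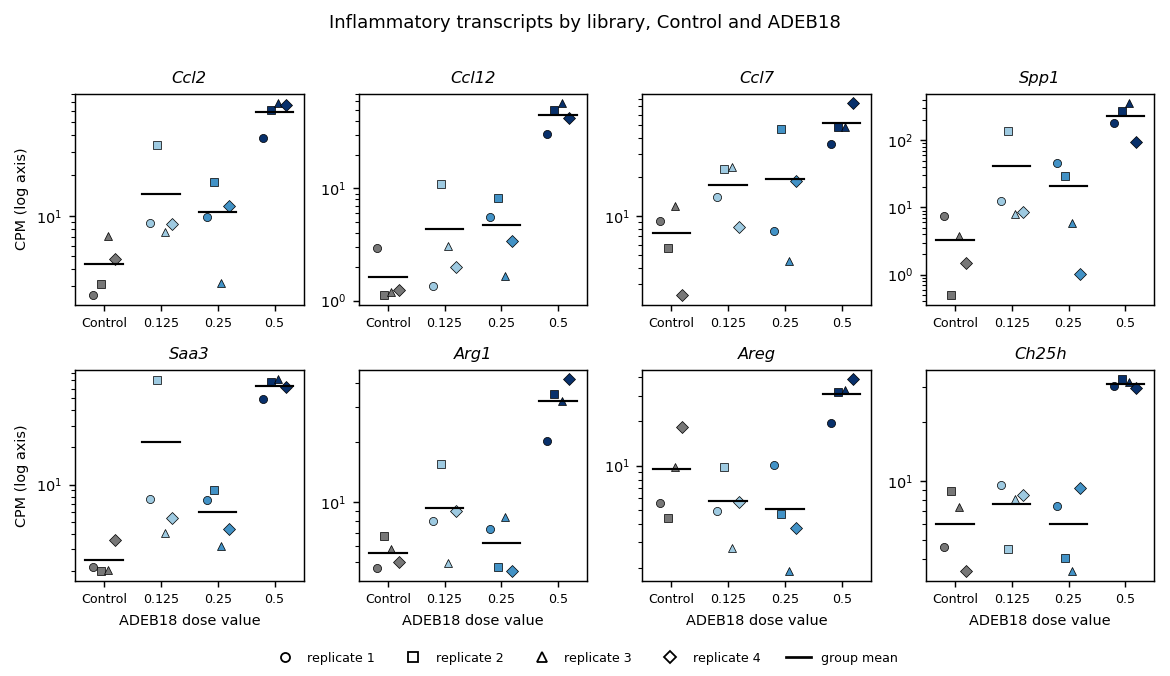
CPM on a log axis (vertical) of 8 inflammatory transcripts in each library of Control and of ADEB18 at 0.125, 0.25 and 0.5 (horizontal), with symbols for replicate numbers and lines for group means. The square at 0.125 is replicate 2, which stood at 136 CPM for Spp1 and 70.6 CPM for Saa3, while Ch25h lies at 29.6 to 32.9 CPM in all 4 libraries at 0.5.

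The epithelium showed injury and type 2 cell genes at higher levels in part. Of 16 injury-associated epithelial genes 2 rose, the growth factor Areg and the keratin Krt8, and none fell, against 1.70% of all genes higher. Areg, which encodes amphiregulin, was at 4.90, 9.73, 2.74 and 5.68 CPM at 0.125 and 19.5, 31.6, 32.9 and 38.8 CPM at 0.5. The doses did not overlap (2.40 ± 0.62, adjusted p = 0.0258). Krt8, a keratin that rises in type 2 cells on their way to repair, rose by 0.83 ± 0.22 (adjusted p = 0.0311), while its partner Krt18 gave 0.32 ± 0.18 (adjusted p = 0.397). Both Areg and Krt8 kept their call only without 0.125 replicate 2 or 0.5 replicate 1, with adjusted p of up to 0.108 and 0.111, so that the list had 0 risen members in the other 6 fits. Of 14 surfactant and type 2 cell genes 3 rose and none fell, against the same 1.70% of all genes. Lpcat1, which makes the saturated phosphatidylcholine of surfactant, was at 198, 262, 151 and 189 CPM at 0.125 and 271, 371, 404 and 345 CPM at 0.5 (0.80 ± 0.13, adjusted p = 0.000514), without overlap and called in all 8 fits. Lamp3 of the lamellar body rose by 0.69 ± 0.18 (adjusted p = 0.0302) and Napsa, the protease that matures surfactant proteins, by 0.44 ± 0.12 (adjusted p = 0.0303). In both, 0.125 replicate 2 lay inside the range of 0.5. Lamp3 and Napsa kept their calls only without 0.125 replicate 2 or 0.5 replicate 1, and of the 14 list members 6 rose without 0.125 replicate 2, 3 without 0.5 replicate 1 and 1 in each of the other 6 fits. With 0.125 replicates 1 and 3 both left out the list median was 0.14 against 0.43, none of the 14 rose, Lpcat1 gave 0.62 (adjusted p = 0.0554), and Nkx2-1, a transcription factor of the lung epithelium, fell (-0.67 ± 0.16, adjusted p = 0.0396). Nkx2-1 is named here after its values were seen. The injury-associated list also had 0 risen members in that fit. Sftpc gave 0.20 ± 0.14 (adjusted p = 0.497) and the type 1 cell gene Ager -0.17 ± 0.20 (adjusted p = 0.732).

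Genes of cell growth were higher at single members. In the DNA replication list 3 of 22 rose and none fell, against 1.70% of all genes higher, with a median of 0.72. Mcm4, a subunit of the replicative helicase, was at 31.6, 26.1, 36.5 and 34.5 CPM at 0.125 and 63.0, 66.7, 52.96 and 60.4 CPM at 0.5 (0.92 ± 0.22, adjusted p = 0.0155), with no overlap. It lost its call without 0.125 replicate 2 or 0.5 replicate 2 (adjusted p up to 0.0627). Pola1, the catalytic subunit of DNA polymerase alpha, rose by 0.63 ± 0.16 (adjusted p = 0.0229) and Uhrf1, which maintains DNA methylation, by 1.97 ± 0.56 (adjusted p = 0.0434). Pola1 kept its call in 2 fits and Uhrf1 in 1, with adjusted p of up to 0.107 and 0.162. Of 20 mitosis genes 1 rose, against the same 1.70% of all genes. It was the kinase Cdk1 (1.12 ± 0.29, adjusted p = 0.0274), called in 2 of the 8 fits with an adjusted p of up to 0.108. All 20 mitosis genes had a positive log2 fold change, with a median of 0.40, while 48.7% of all genes were above 0. The count for replication was 0 without 0.5 replicate 2, 2 without 0.125 replicate 2 or 0.5 replicate 1 and 1 in each other fit. With 0.125 replicates 1 and 3 both left out it was 0, as it was for mitosis. Mki67, a marker of cycling cells, gave 0.82 ± 0.31 (adjusted p = 0.159), Pcna, the polymerase clamp, 0.70 ± 0.24 (adjusted p = 0.101) and the helicase subunit Mcm3 0.61 ± 0.20 (adjusted p = 0.0969). Myc, the growth transcription factor, rose by 1.76 ± 0.49 (adjusted p = 0.0421), a call kept in none of the 8 fits. Eno1, the glycolytic enolase, rose by 1.09 ± 0.24 (adjusted p = 0.00672), from 33.8 to 46.3 CPM at 0.125 to 78.9 to 88.2 CPM at 0.5, in every fit.

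Other lists held few called members, to be set beside 1.70% of all genes higher and 0.742% lower. The Nrf2 and antioxidant list had 1 of 18 rise, Txnrd1, a thioredoxin reductase (0.40 ± 0.12, adjusted p = 0.0472, called in 1 of the 8 fits with 1 library left out). Hmox1, the heme oxygenase, gave 1.39 ± 0.46 (adjusted p = 0.0936). Of 19 proteasome subunits 3 rose, Psmb2 (0.61 ± 0.15, adjusted p = 0.0152), Psmd14 (0.84 ± 0.21, adjusted p = 0.0209) and Psme2 (0.51 ± 0.13, adjusted p = 0.0258), and the count was 0 to 3 with single libraries left out, 0 without 0.5 replicates 2 or 3 and 1 without 0.125 replicates 3 or 4 or with 0.125 replicates 1 and 3 both left out. Of 23 lysosome and lipid handling genes 2 rose, the cathepsins Ctsb (0.66 ± 0.17, adjusted p = 0.0255) and Ctsz (0.72 ± 0.20, adjusted p = 0.0428). Of 17 tested hypoxia and glycolysis genes Eno1 and Ldha, a lactate dehydrogenase (0.91 ± 0.25, adjusted p = 0.0347), rose. Of 21 immediate early genes Myc and Maff, a small MAF factor (1.04 ± 0.26, adjusted p = 0.0233), rose. Hsp90aa1, a cytosolic HSP90 (0.70 ± 0.20, adjusted p = 0.0434), was the called gene of 12 heat shock genes, S100a10, the partner of annexin A2 (0.75 ± 0.18, adjusted p = 0.0140), of 21 actin and membrane repair genes and Eprs1 (0.56 ± 0.11, adjusted p = 0.00389) of 18 tRNA synthetase genes, the last a list made after values were seen. Of these 9 genes Eno1 and Eprs1 kept their calls in all 8 fits with 1 library left out, S100a10 in 6, Maff in 4, Ctsb in 2, Ctsz and Ldha in 1 and Hsp90aa1 and Myc in 0. No member was called among lists of T cell, B cell, natural killer, mast cell, resident macrophage, alveolar type 1, goblet, coagulation, glucocorticoid-responsive, club, ciliated, basal, smooth muscle, erythroid, p53 target, circadian clock, interferon-stimulated, MHC class II or mitochondrially encoded genes. Mfsd2a, a lysophospholipid transporter, and Entpd3, an ectonucleotidase, were among the largest rises, at 2.21 ± 0.53 (adjusted p = 0.0152) and 1.66 ± 0.41 (adjusted p = 0.0205). Mfsd2a lost its call without 0.125 replicates 1 or 3 or 0.5 replicate 3, and Entpd3 without 0.125 replicate 3 or 0.5 replicates 2 or 3 (adjusted p up to 0.0693 and 0.0994).

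Among lower genes, Abcd2, a peroxisomal transporter of very long chain fatty acids, fell most of the genes named by size. It was at 32.2, 11.8, 27.7 and 13.8 CPM at 0.125 and 9.02, 4.77, 5.57 and 6.26 CPM at 0.5 (-1.73 ± 0.30, adjusted p = 0.000578). The 0.125 libraries spread widely and still lay above all of 0.5. The call held in all 8 fits, and the adjusted p was 0.148 with 0.125 replicates 1 and 3 both left out. Ccl21, a chemokine of lymphatic vessels that guides T and dendritic cells by CCR7, fell by 1.03 ± 0.23 on the log2 scale (adjusted p = 0.00765). It was at 106, 116, 68.9 and 63.2 CPM at 0.125 and 35.4, 47.2, 45.9 and 44.9 CPM at 0.5. In the mouse this chemokine has near-identical gene copies, and the files do not show how reads of any such copies in the rat were assigned.

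Vessel and matrix genes fell at a few members. Cd34, a sialomucin of endothelial and mesenchymal cells, was at 167, 146, 203 and 196 CPM at 0.125 and 119, 120.3, 108 and 105 CPM at 0.5 (-0.65 ± 0.11, adjusted p = 0.000427), without overlap. Lamb1, a laminin chain of basement membranes, gave -0.58 ± 0.11 (adjusted p = 0.00152), and Pdgfra, the growth factor receptor of lung fibroblasts, -0.57 ± 0.12 (adjusted p = 0.00549). Cd34, Lamb1, Pdgfra and Vamp2, a vesicle SNARE (-0.69 ± 0.12, adjusted p = 0.000514), were called in all 8 fits. Of 20 matrix and fibroblast genes, 2 fell and none rose, against 0.742% of all genes lower. The 2 were Pdgfra and Sparc, a collagen-binding protein (-0.38 ± 0.09, adjusted p = 0.0212). Without 0.125 replicate 2 the list had 5 that fell and 1 that rose, and 1 fell without 0.125 replicates 1 or 3 or 0.5 replicates 2 or 3. None fell with 0.125 replicates 1 and 3 both left out, and the list median was -0.14 against -0.40. Col1a1 gave -0.68 ± 0.26 (adjusted p = 0.156). Of 19 endothelial markers 1 fell, against the same 0.742% of all genes. It was the tight junction gene Cldn5 (-0.65 ± 0.17, adjusted p = 0.0303), kept without 0.125 replicates 1 or 3 and not in the other 6 fits. Pecam1 gave -0.18 ± 0.18 (adjusted p = 0.667).

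Some genes named by size among the decreases are known from muscle, although no member of the lists of 11 cardiac and 10 smooth muscle genes was called. All 10 smooth muscle genes had a negative log2 fold change, with a median of -0.51, while 48.7% of all genes were above 0. The 10 genes summed to 2634, 2047, 3684 and 3681 CPM in 0.125 replicates 1 to 4 and to 1890 to 2228 CPM at 0.5. The part of smooth muscle transcripts in the falls below was not tested. Jph2, a junctophilin that ties the sarcoplasmic reticulum to the cell surface, was at 49.8, 34.8, 71.4 and 38.1 CPM at 0.125 and 18.04, 23.6, 22.8 and 19.98 CPM at 0.5 (-1.20 ± 0.23, adjusted p = 0.00235). Hspb8, a small heat shock protein of heart and skeletal muscle, was at 34.5, 29.6, 49.7 and 27.5 CPM at 0.125 and 11.8, 19.7, 14.8 and 16.01 CPM at 0.5 (-1.18 ± 0.22, adjusted p = 0.00235). Neither overlapped, which the naming by size required, and in both 0.125 replicate 3 was the highest. Jph2 and Hspb8 kept the call in all 8 fits, but not with 0.125 replicates 1 and 3 both left out (adjusted p = 0.151 and 0.0944). Kcnh2, a potassium channel of the heartbeat, fell by 1.09 ± 0.24 (adjusted p = 0.00623; 0.0651 without 0.125 replicate 3), and Fbxl22, Alpk3 and Sync, which act in or around the sarcomere, gave -1.33 ± 0.38 (adjusted p = 0.0433), -1.06 ± 0.31 (adjusted p = 0.0485) and -1.06 ± 0.27 (adjusted p = 0.0237). Fbxl22 was called in 1 of the 8 fits, Alpk3 in 2 and Sync in 4.

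The 11 defining heart muscle genes all had negative log2 fold changes, while 48.7% of all genes were above 0. Their median was -1.67, and none of the 11 was called. The median was -0.17 with 0.125 replicates 1 and 3 both left out. Tnni3, cardiac troponin I, was at 893, 103, 1353 and 311 CPM at 0.125 and 26.6, 355, 141 and 282 CPM at 0.5 (-1.73 ± 1.38, adjusted p = 0.581), and Actc1 gave -1.97 ± 0.70 (adjusted p = 0.121). The doses overlapped in both. With the mean level of the 11 genes as a covariate, Jph2 gave -1.08 (adjusted p = 0.00151) and Hspb8 -1.08 (adjusted p = 0.00142), while Fbxl22 gave -1.13 (adjusted p = 0.0539) and Alpk3 -0.99 (adjusted p = 0.0583), against -1.33 and -1.06 without it, and were no longer called. Actc1, a member of the 11, fell in that fit (-1.24, adjusted p = 0.0299), so the covariate did not take up every difference in heart muscle genes. Over all 17796 genes tested, 370 were called higher with the covariate and 303 without it. The cholesterol list had 14 of 24 risen both with it and without it.

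**Figure D4:**
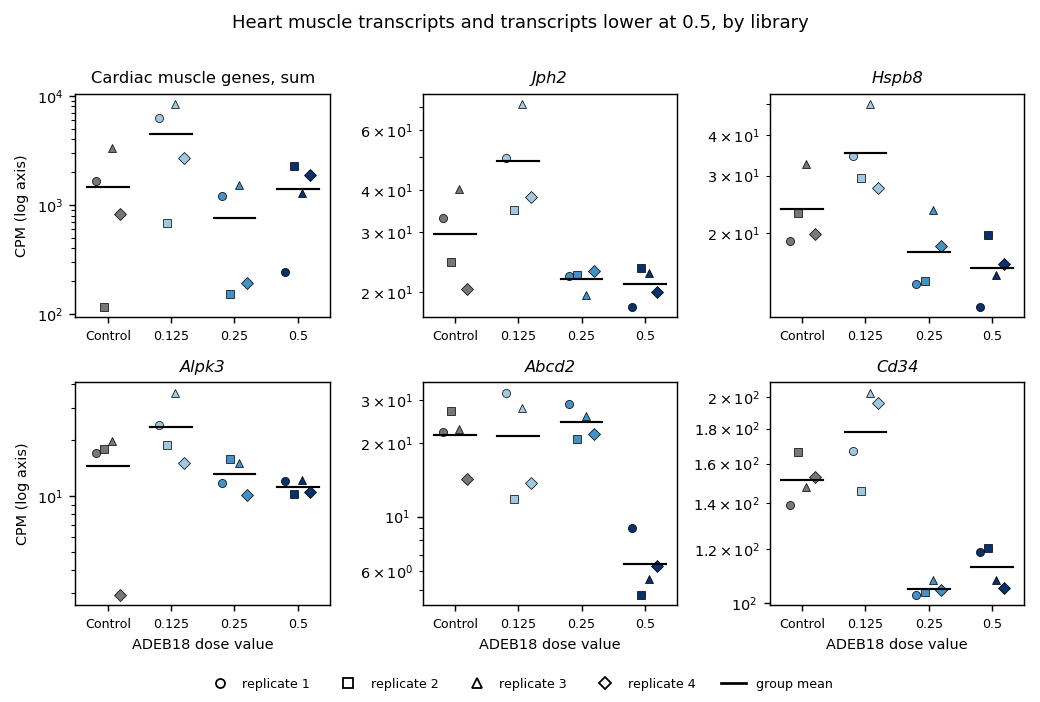
CPM on a log axis (vertical) of the summed 11 cardiac muscle genes and of 5 transcripts lower at 0.5 in each library of Control and of ADEB18 at 0.125, 0.25 and 0.5 (horizontal), with symbols for replicate numbers and lines for group means. The cardiac sum is 682 to 8346 CPM at 0.125 and 244 to 2260 CPM at 0.5, and Abcd2 lies at 4.77 to 9.02 CPM at 0.5.

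Further decreases by size were Serpinb10, a serine protease inhibitor (-1.68 ± 0.45, adjusted p = 0.0328), the matrix proteases and relatives Adamts5 (-1.41 ± 0.35, adjusted p = 0.0205) and Adamtsl1 (-1.30 ± 0.31, adjusted p = 0.0143), Abcb9, a lysosomal peptide transporter (-1.39 ± 0.39, adjusted p = 0.0428), Adra1a, an adrenergic receptor (-1.17 ± 0.29, adjusted p = 0.0204), Zfp622 (-1.14 ± 0.24, adjusted p = 0.00623) and Aldh1a3, which makes retinoic acid (-0.98 ± 0.25, adjusted p = 0.0226). None of these 7 kept its call in all 8 fits. Serpinb10 and Adamts5 were called in 3, Abcb9 in 1, Adamtsl1 in 6, Adra1a and Aldh1a3 in 5 and Zfp622 in 7, the exception being the fit without 0.125 replicate 3 (adjusted p = 0.102).

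The middle dose of 0.25 divides the range into a lower and an upper step. Each step had fewer calls than the contrast of the outer doses, 59 genes (0.332%; 42 higher, 0.236%, and 17 lower, 0.0955%) for 0.25 against 0.125 and 142 (0.798%; 91 higher, 0.511%, and 51 lower, 0.287%) for 0.5 against 0.25. At least 2-fold changes were called for 13 (0.0731%) and 42 (0.236%) genes, and an unadjusted p under 0.05 was found for 2157 (12.1%) and 2716 (15.3%). Both steps share libraries with the contrast of the outer doses. With the 8 libraries of a step alone in the fit, which also left fewer genes to test (15430 and 15347), the calls were 0 and 527. The lower step had 36, 36 and 19 calls without 0.125 replicates 1, 2 and 3 and 22, 34 and 38 without 0.25 replicates 1, 2 and 3. The upper step had 36, 9 and 357 without 0.25 replicates 2, 3 and 4, and 82, 28, 27 and 49 without 0.5 replicates 1 to 4.

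Of the 24 cholesterol genes 6 rose from 0.25 to 0.5, against 0.511% of all genes higher. From 0.125 to 0.25 it was 1, Insig1, against 0.236% of all genes. The difference between the steps was not tested. Cyp51 gave 0.29 ± 0.20 (adjusted p = 0.586) at the lower step and 1.15 ± 0.20 (adjusted p = 0.00275) at the upper, and Fdps 0.01 ± 0.18 (adjusted p = 0.990) and 1.04 ± 0.18 (adjusted p = 0.00275). Insig1 gave 0.76 ± 0.17 (adjusted p = 0.0230) at the lower step and 0.38 ± 0.17 (adjusted p = 0.264) at the upper. Ccl12, Ch25h, Arg1 and Areg were called at the upper step and not at the lower. At the upper step Ch25h rose by 2.36 ± 0.41 (adjusted p = 0.00275) and Ccl12 by 3.27 ± 0.66 (adjusted p = 0.00981). Abcd2 likewise gave 0.19 ± 0.28 (adjusted p = 0.849) and then -1.92 ± 0.30 (adjusted p = 0.000938).

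Other genes were called at the lower step. Cd34 averaged 178 ± 26.6 CPM at 0.125, 105 ± 2.34 at 0.25 and 113 ± 7.54 at 0.5, with log2 fold changes of -0.76 ± 0.11 (adjusted p = 7.85e-05) and 0.11 ± 0.11 (adjusted p = 0.692) over the lower and upper steps. Vps72, a histone-binding subunit of chromatin remodellers, gave 1.36 ± 0.22 (adjusted p = 0.000796) and -0.27 ± 0.22 (adjusted p = 0.611), Tead4, the partner of YAP on DNA, 1.14 ± 0.20 (adjusted p = 0.00277) and -0.02 ± 0.19 (adjusted p = 0.974), and Arid1a 0.62 ± 0.10 (adjusted p = 0.000796) and 0.01 ± 0.10 (adjusted p = 0.981). Jph2 and Hspb8 also fell at the lower step, by 1.15 ± 0.23 (adjusted p = 0.00689) and by 1.01 ± 0.22 (adjusted p = 0.0188). The 11 cardiac muscle genes had a median of -2.65 at that step, none of them called, and summed to 682 to 8346 CPM at 0.125 and 152 to 1520 CPM at 0.25. Their part in these falls was not tested at this step. For Cd34, Vps72, Tead4, Arid1a, Jph2 and Hspb8 the Control mean lay between those of 0.125 and 0.5, with 152 ± 11.5 CPM for Cd34 and 147 ± 6.74 CPM for Arid1a, whose mean at 0.125 was 118 ± 14.3 CPM. All of these genes were called between 0.125 and 0.5, which favours such an order.

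ABD was given at the same dose values, which allows the same contrast for a second compound. ABD at 0.5 against 0.125 had 3 genes called (0.0169%), all higher. They were the clock repressors Nr1d1 (1.94 ± 0.33, adjusted p = 0.00415) and Nr1d2 (1.10 ± 0.16, adjusted p = 0.00029) and the sodium-proton exchanger Slc9a5 (1.89 ± 0.37, adjusted p = 0.0328). With the 8 libraries alone in the fit it had 0, without ABD 0.125 replicates 1 or 4 or 0.5 replicate 4 it had 1, and without ABD 0.5 replicate 1 it had 6; 1078 genes (6.06%) had an unadjusted p under 0.05. The test of the difference between the 2 compounds' log2 fold changes called 21 genes (0.118%), 16 with a positive difference, ADEB18 minus ABD (0.0899%), and 5 with a negative one (0.0281%), adjusted over all genes tested. Of these 11 (0.0618%) differed at least 2-fold, and 1757 genes (9.87%) had an unadjusted p under 0.05. The count was 10, 8 and 10 without ABD 0.125 replicates 2, 3 and 4, 5 and 6 without ABD 0.5 replicates 3 and 4, 7 and 13 without ADEB18 0.125 replicates 3 and 4, and 6 without ADEB18 0.5 replicates 2 or 3. The labels and series description do not say how the compounds differ in structure.

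Of the 14 cholesterol genes that rose, 5 differed between the compounds. Cyp51 averaged 58.7 ± 11.8 CPM at ABD 0.125 and 50.9 ± 5.94 CPM at ABD 0.5, a log2 fold change of -0.21 ± 0.20, and the difference, ADEB18 minus ABD, was 1.64 (95% interval 1.08 to 2.20, adjusted p = 0.00177). The difference was 1.43 for Insig1 (adjusted p = 0.00177), 1.26 for Msmo1 (adjusted p = 0.0316) and 1.26 for Hmgcs1 (adjusted p = 0.0250). The list median was -0.12 in ABD against 0.88 in ADEB18. The difference was positive for all 14 members that rose in ADEB18. These were picked for that rise, which is a part of the difference, so a positive sign was favoured in advance. For the other 9 of the 14 the difference did not pass the test, as in Idi1 (1.34, interval 0.58 to 2.11, adjusted p = 0.148) and Fdps (0.88, interval 0.37 to 1.39, adjusted p = 0.148).

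**Figure D5:**
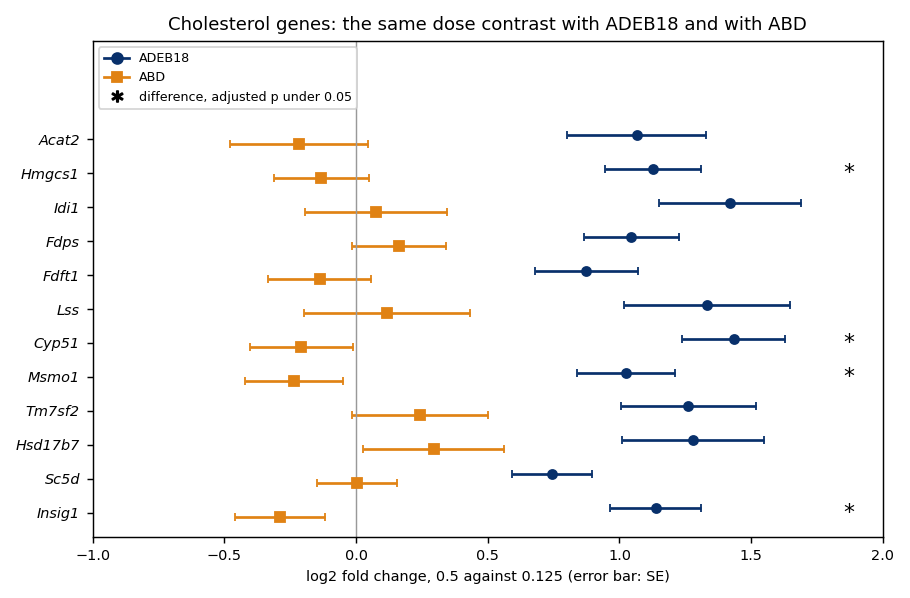
The log2 fold change of 0.5 against 0.125 with its SE (horizontal axis) for 12 cholesterol genes that rose with ADEB18 (circles) and the same contrast with ABD (squares). Asterisks mark the 4 of these genes, Cyp51, Insig1, Hmgcs1 and Msmo1, whose difference between compounds had an adjusted p under 0.05.

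Outside the sterol route, Hnrnpm differed by 0.93 (adjusted p = 0.000472), Edem2 by 1.56 (adjusted p = 0.0445), Lpcat1 by 0.87 (adjusted p = 0.0355), Stt3a by 0.72 (adjusted p = 0.0355), Arid1a by 0.66 (adjusted p = 0.0355) and Vps72 by 1.71 (adjusted p = 0.00602), all with a positive difference. Abcd2 differed by -1.91 (interval -2.73 to -1.09, adjusted p = 0.0355) and Cd34 by -0.69 (adjusted p = 0.0355). Nr1d1, Nr1d2 and Slc9a5, which rose in ABD and were not called in ADEB18, differed by -2.05 (adjusted p = 0.0445), -1.502 (adjusted p = 0.000472) and -2.56 (adjusted p = 0.0235). The 18 clock genes summed to 546 to 711 CPM at ADEB18 0.125, 620.1 to 665 CPM at 0.5 and 357 to 419 CPM in Control, and the part of the time of day was not tested. For the chemokines no difference between compounds passed the test: Ccl2 rose by 1.99 in ADEB18 and gave 1.71 ± 0.52 (adjusted p = 0.740) in ABD, a difference of 0.28 (interval -1.15 to 1.71, adjusted p = 0.946), and the difference for Ccl12 was 0.86 (interval -1.20 to 2.92, adjusted p = 0.854). These intervals are wide enough to hold both no difference and a large one.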

How the data were processed

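Each library was deposited as read counts per gene symbol, and the authors' raw counts were used. The tools and build listed in the submitters' processing notes are fastp, STAR, HTSeq and mRatBN7.2, without versions, roles or order. The sources used here do not state strand setting or annotation. Per the labels' protocols, RNA was taken with Trizol for a Lexogen Quant-Seq kit.

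The main test was the quasi-likelihood test of edgeR 4.0.16 in R 4.3.3, with TMM scaling, filterByExpr on the groups and 13 group terms over 52 libraries, which left 17796 genes and 39 residual degrees of freedom. All p-values are two-sided and adjusted (Benjamini-Hochberg) across the genes tested; calls need an adjusted p under 0.05. SE is the size of the log2 fold change divided by the square root of F, and 95% intervals use the t quantile. Alternatives were DESeq2 1.42.0, limma-voom 3.58.1, other scalings, filters and sets of libraries, a replicate block and leaving out libraries.

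Genes were named by size (15 each way, no overlap of libraries, 5 CPM or more on average in either group), by smallest adjusted p (5 each way), by 3 each way in the other contrasts, and from lists. The 43 gene lists and their members were chosen with earlier results of these data known, and 4 lists after values were seen. Of 34034 symbols 29433 matched RefSeq GRCr8, which gave promoters and differs from the files' build. Code was tested on simulated data. Some genes are counted within their lists and not reported singly here.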

Additional observations from a re-analysis of the deposited data

Results flagged for a closer look

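The ADEB18 and ABD contrasts of 0.5 against 0.125 differed, by the edgeR test of the difference, in 15 of the named genes. The log2 fold change in ADEB18 minus that in ABD was 1.64 for Cyp51, 1.43 for Insig1, 1.26 for Hmgcs1 and 1.26 for Msmo1. It was 1.56 for Edem2, 0.93 for Hnrnpm, 0.66 for Arid1a, 1.71 for Vps72, 0.87 for Lpcat1 and 0.72 for Stt3a. It was -1.91 for Abcd2, -0.69 for Cd34, -2.05 for Nr1d1, -1.502 for Nr1d2 and -2.56 for Slc9a5.

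In 17 of 262 pairs of a named gene and a dose group, 1 library lay far from the other 3. Chance gives about 1 in 20, or about 13. The library 0.125 replicate 2 held 7 of them, the highest value each time: 33.5 CPM for Ccl2, 70.6 CPM for Saa3, 136 CPM for Spp1, 4.99 CPM for Il24, 25.1 CPM for Vps72, 102 CPM for Txnrd1 and 35.7 CPM for Nsdhl. At 0.125 the others were 52.2 CPM for Cyp51 and 51.5 CPM for Pdcd11 in replicate 1 and 29.5 CPM for Zfp622 in replicate 3. At 0.5 replicate 1 was low for Ctsb (738 CPM) and Wdr43 (66.4 CPM) and high for Hmox1 (220.1 CPM). Replicate 2 was high for Dnajc3 (123 CPM), replicate 3 for Mvk (24.8 CPM) and replicate 4 for Eprs1 (279 CPM) and Il24 (16.6 CPM).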

How the results depend on the processing

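Of the 97 called genes among the 131 named, 35 kept the call in each fit that left out 1 library and 34 in each of the alternatives set with the design. Over all fits of the named genes, 2060 values kept direction and side of the threshold, 534 lost the call, 22 gained one and 4 changed direction. For ADEB18 0.5 against 0.125 the 435 calls became 76 with a 2-fold minimum, 717 with the DESeq2 Wald test (366 higher, 351 lower), and 128 to 426 with single libraries left out. With the contrast's libraries alone 320 of 15487 genes were called, and 216 of these were among the 435. With the ADEB18 libraries alone 339 were called, and 243 of these were among the 435. Alternatives chosen after seeing the data gave 592 with the heart muscle level as a covariate (370 higher, 222 lower), 187 with the score of genes that varied together as a covariate and 101 with 0.125 replicates 1 and 3 both left out. With upper-quartile factors 263 were higher and 154 lower, and without 0.125 replicate 4 the split was 191 and 145. The 59 calls of 0.25 against 0.125 became 13 with a 2-fold minimum, 0 with the contrast's libraries alone, 16 with the ADEB18 libraries alone, 173 with DESeq2 and 19 to 80 with single libraries left out. The 142 calls of 0.5 against 0.25 became 42, 527, 290 and 507 in the same order, 362 with limma-voom and 9 to 357. The 3 calls of ABD became 0 with its libraries alone, 1 with limma-voom, 8 with DESeq2 and 1 to 6. The 21 differences between compounds became 11 with a 2-fold minimum, 11 with no filter, 81 with DESeq2 and 5 to 26. The cause of these shifts was not tested. Fits with single libraries left out also have fewer samples. Replicate numbers did not pair libraries: residual correlations between the same numbers ran from -0.15 to -0.06, and no library correlated best with its own number. With a replicate block the counts were 458, 54, 174, 2 and 15 in the order above. Direction changed for Nr1d1 (-0.295 to 0.175 with single libraries left out), for Srebf2 (-0.0612 to 0.00776, and 0.0373 with the score as a covariate) and for Sftpc (-0.0347 with 0.125 replicates 1 and 3 both left out). Genes at a few CPM, such as Itih4 and Il24, rest on the least depth.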

Other observations

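A set of 287 genes varied together within groups over the 44 libraries outside the contrast of 0.5 against 0.125. Its mean level, in log2 CPM, was 5.13 ± 0.33 (SD, n = 4) at ADEB18 0.125, 4.79 ± 0.55 at 0.25, 5.64 ± 0.13 at 0.5 and 4.91 ± 0.0997 in Control, and it made up 1.61% of the genes tested. Of the 435 called genes 15 (3.45%), all higher, belonged to it, so that 5.23% of the set was called, against 2.44% of all genes. The set held the genes correlated above 0.7 with a main axis of variation within groups. The set's level was 4.79 to 5.56 over the libraries at 0.125 and 5.46 to 5.76 at 0.5. As a covariate it can therefore take up a part of the dose difference itself. With that level as a covariate, 139 of all 17796 genes were called higher and 48 lower, against 303 and 132 without it. The list counts that follow are to be read beside that general loss of calls. In that fit 12 of 24 cholesterol genes rose, and none of 22 genes of the ER list, whose median was 0.39 with the covariate and 0.41 without it. The median went from 0.51 to 0.49 for ribosome biogenesis and from 0.335 to 0.19 for the translocon list. Risen members went from 6 to 1 for splicing factors, from 9 to 6 for ribosome biogenesis, from 6 to 5 for the translocon list, from 3 to 0 for proteasome subunits, from 3 to 1 for monocyte chemokines, from 2 to 1 for recruited monocyte genes, from 3 to 2 for surfactant genes, from 2 to 0 for injury-associated genes, from 3 to 1 for DNA replication, from 1 to 0 for mitosis and from 1 to 0 for acute phase genes. The list of neutrophil chemokines and early cytokines had 1 with and without it. Fallen members went from 2 to 1 for matrix genes and from 1 to 2 for endothelial markers. The part of the 287 genes in the results was not tested further.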
